A study of Mus musculus with 6 samples.

Results

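The gastric chief cell is described here by 5 genes, 3 that encode its secreted products (Cblif, Pgc and Pga5) and 2 that encode transcription factors of its secretory programme (Bhlha15 and Xbp1). They were chosen by name from 21883 protein-coding genes, with earlier results of these data known. All peak summits of the 6 libraries that lay inside a gene or within 50 kb of its start or end (GRCm38, mm10) were collected, 176 in all. The windows of the 5 genes share no summit.

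The libraries are chromatin immunoprecipitation sequencing (ChIP-seq) of mouse gastric corpus epithelium, the acid- and enzyme-secreting part of the stomach lining, released with EDTA and used without culture. There were 2 libraries labelled tumor and 2 labelled normal for YAP, the coactivator that Hippo signalling restrains. There was 1 tumor library and 1 normal library for H3K27ac, an acetylation of histone tails at promoters and enhancers in use. Tumor mice had the genotype CluCreERT2;R26rtTA;HA-Yap+, in which a tamoxifen-activated Cre at the Clu locus and a doxycycline-dependent transactivator switch on HA-tagged Yap, and normal mice were labelled WT (wild type). The labels carry 1 protocol text for all 6 samples, 2 mg tamoxifen on each of 5 days and then doxycycline chow for 14 days. The ages of the mice are not stated. Induction depends on where Clu is active, while the chromatin came from the whole corpus epithelium. In such bulk material fewer chief cells and a weaker mark per cell cannot be told apart. Whether libraries of 1 group came from separate animals is not stated, so a p-value here reflects sample-to-sample spread that may be technical.

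The lists held 38268 and 53904 YAP summits in tumor 1 and tumor 2, against 1654 and 2141 in normal 1 and normal 2. They held 66896 H3K27ac summits in tumor and 22574 in normal. Sequencing depth is unknown, so counts are given for the full lists and, for H3K27ac, also with the tumor list shortened to its 22574 best-scored summits, here called equal list length. Peak names carry the word Clu_Yap in tumor H3K27ac, YAP tumor 2 and YAP normal 2, and the word cre in normal H3K27ac, YAP tumor 1 and YAP normal 1. The names of YAP tumor 1 and YAP normal 2 therefore go against their labels, and every direction between YAP groups rests on the labels. An H3K27ac summit lay inside the gene or within 1 kb of it at 9 of 10 gastric epithelial markers in tumor and 10 of 10 in normal. Gkn1 was the epithelial marker with none in tumor. These are counts from full lists of unequal length, and no share over all genes is given beside them. They are descriptions only and do not measure cell content.

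Chief cells sit at the base of corpus glands and store digestive proenzymes in large granules. Pgc and Pga5 encode pepsinogens, which acid converts into pepsins, and Cblif encodes gastric intrinsic factor, the carrier of vitamin B12 that chief cells make in the mouse. Bhlha15 encodes MIST1, a basic helix-loop-helix factor that scales up granules, and Xbp1 encodes the transcription factor that expands the endoplasmic reticulum and that the IRE1 branch of the unfolded protein response activates. Loss of MIST1 is a familiar feature of metaplastic corpus glands, and expression was not measured here.

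The RefSeq promoter table for GRCm38.p6 held 4 of the 5 genes, all on the plus strand. The bases upstream of each gene are shown because tumor YAP summits lay at the starts of Bhlha15 and Xbp1 and not at those of Cblif and Pgc. Each runs 5′ to 3′ and stops before the first annotated base of the gene. Capitals mark a match to 1 of 4 motifs, which were searched on both strands in the 250 bases before the transcript start: GGAATG (TEAD factors, the DNA-binding partners of YAP), CAGCTG (an E-box of basic helix-loop-helix factors), TGANTCA (AP-1) and TGACGTGG (an unfolded protein response element). The Cblif stretch is chr19:11747309-11747542, that of Pgc chr17:47726592-47726841, that of Bhlha15 chr5:144190036-144190285 and that of Xbp1 chr11:5520391-5520640.
Cblif: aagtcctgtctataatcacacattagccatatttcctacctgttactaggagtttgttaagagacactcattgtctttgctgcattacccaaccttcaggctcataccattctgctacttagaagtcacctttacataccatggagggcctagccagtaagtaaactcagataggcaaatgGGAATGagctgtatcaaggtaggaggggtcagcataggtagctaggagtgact
Pgc: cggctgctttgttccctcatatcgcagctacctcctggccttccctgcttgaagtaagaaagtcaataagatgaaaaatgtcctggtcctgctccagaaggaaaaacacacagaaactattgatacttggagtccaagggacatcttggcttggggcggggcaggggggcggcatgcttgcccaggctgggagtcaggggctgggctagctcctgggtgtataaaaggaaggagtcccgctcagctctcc
Bhlha15: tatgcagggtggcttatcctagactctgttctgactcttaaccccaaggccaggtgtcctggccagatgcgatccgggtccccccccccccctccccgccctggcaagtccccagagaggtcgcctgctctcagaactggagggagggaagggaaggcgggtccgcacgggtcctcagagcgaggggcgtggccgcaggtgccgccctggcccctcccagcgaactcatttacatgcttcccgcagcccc
Xbp1: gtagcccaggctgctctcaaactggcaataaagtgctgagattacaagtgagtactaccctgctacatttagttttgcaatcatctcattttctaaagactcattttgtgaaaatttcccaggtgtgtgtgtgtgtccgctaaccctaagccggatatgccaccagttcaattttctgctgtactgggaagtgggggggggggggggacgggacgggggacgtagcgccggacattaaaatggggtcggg
The TEAD letters at chr19:11747490-11747495, 69 bases before the Cblif transcript start, were the only match in the 4 stretches. The same letters occur in 12.6% of the 32851 promoters in that table, the E-box in 13%, the AP-1 letters in 6.75% and the unfolded protein response letters in 0.563%. A match describes letters only, and none says only that these letters are not in the window.

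**Figure D1:**
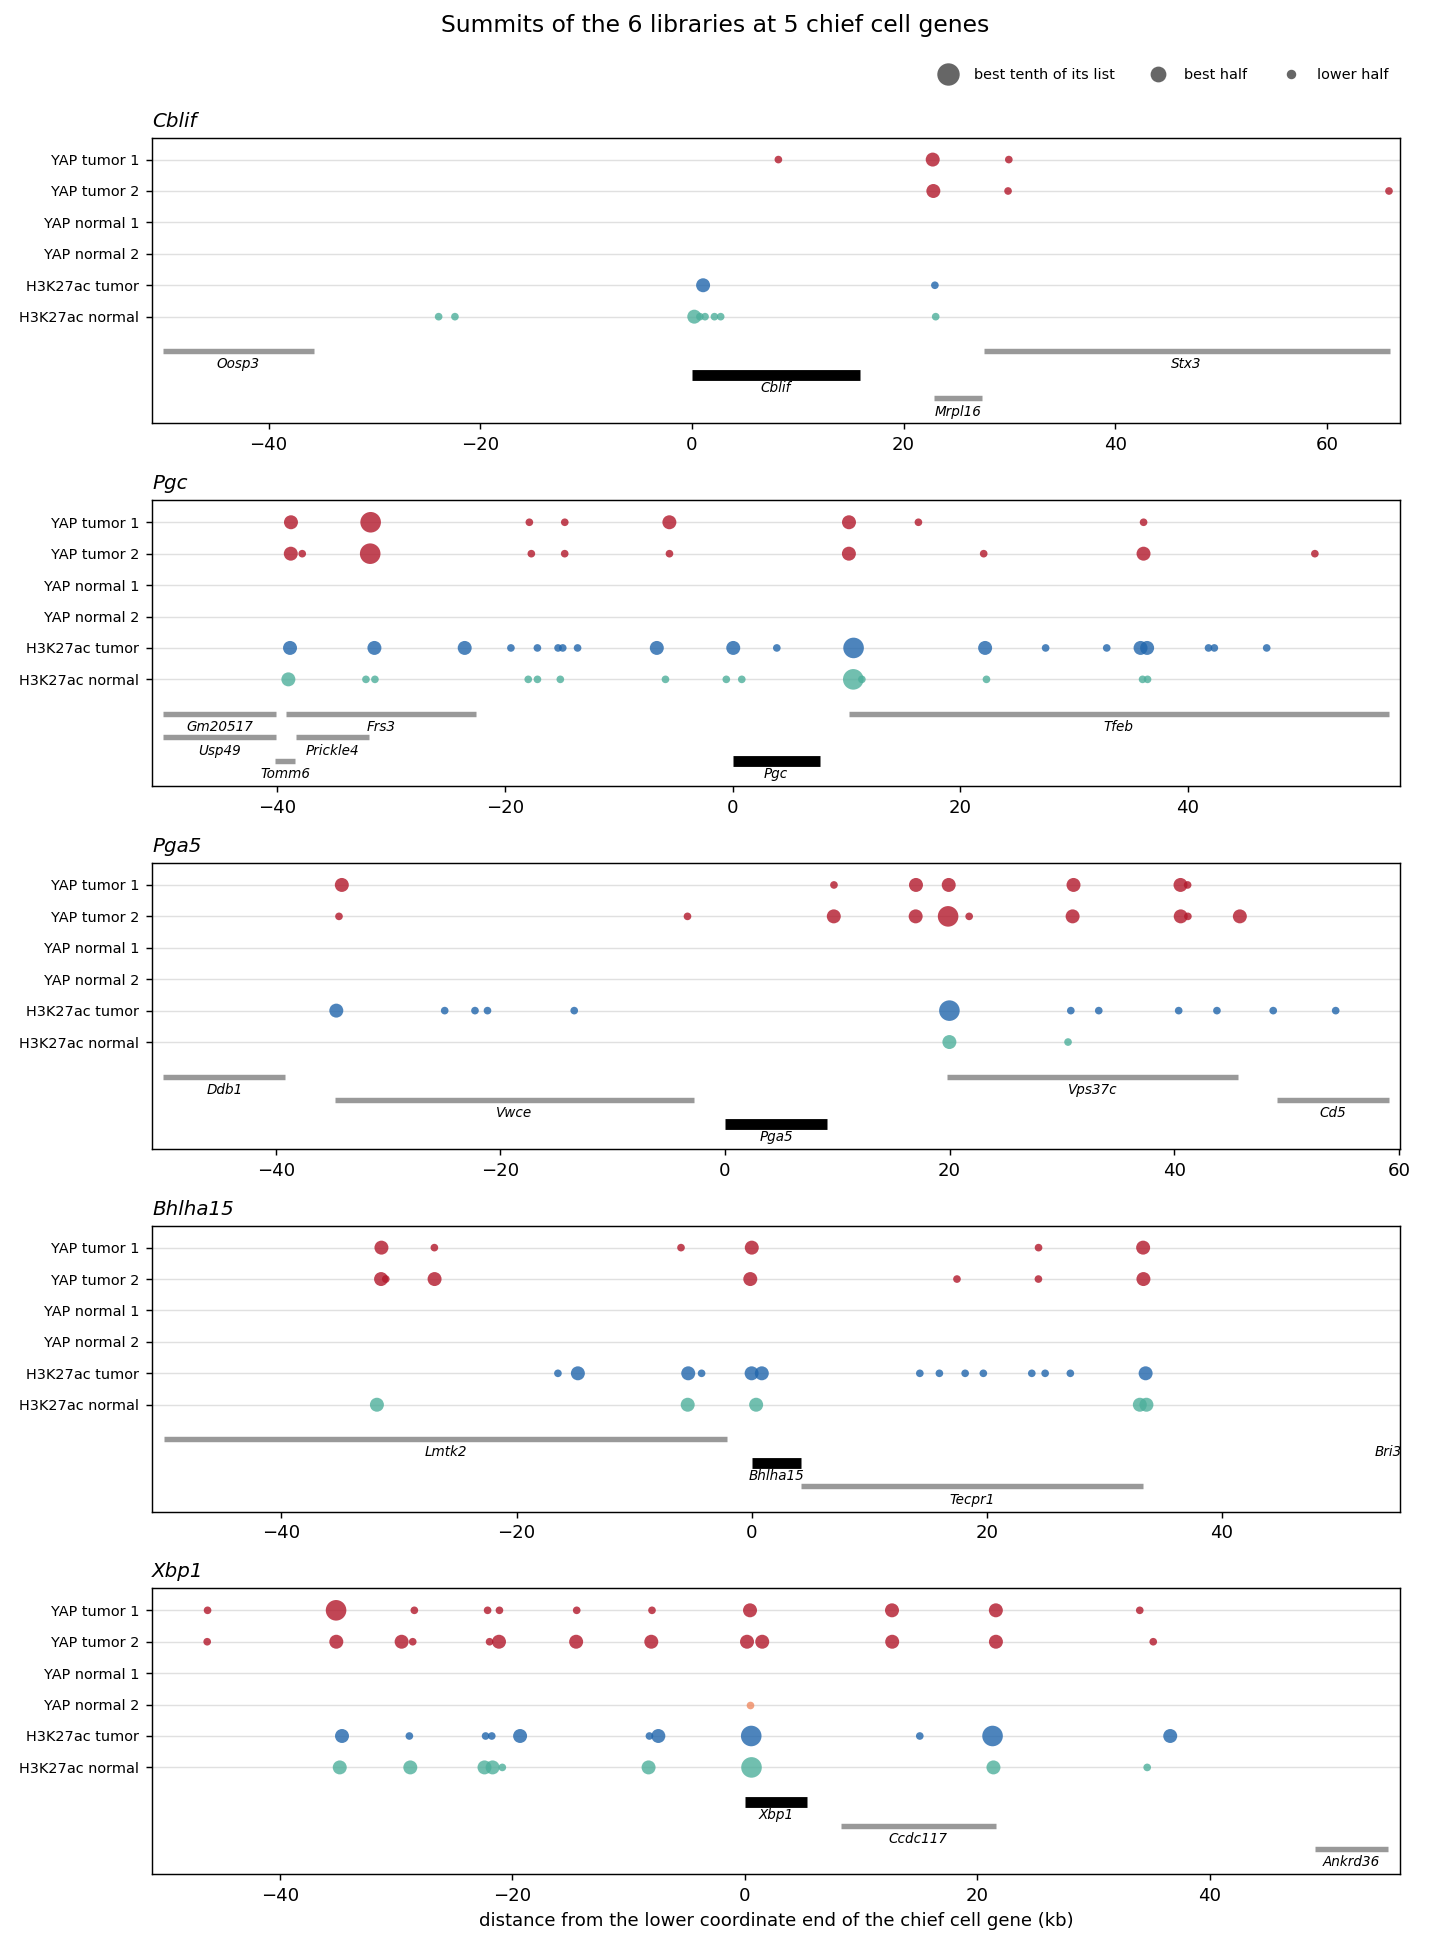
Summits of each library (rows) by distance in kb from the lower coordinate end of each gene, with the chief cell gene in black and other protein-coding genes in grey. Larger points are summits ranked nearer the top of their own list. Tumor YAP summits are found at the starts of Bhlha15 and Xbp1 and not at those of Cblif and Pgc.

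The question put to these loci was which H3K27ac elements of normal corpus epithelium were also found in the tumor and which of those carried YAP. Of the 38 normal summits, 32 had a tumor H3K27ac summit within 1 kb in the full tumor list and are called retained (84.2%, Wilson 95% interval 69.6 to 92.6). Over all 22574 normal summits the share was 79.8%. Of the 32 retained summits, 24 had a YAP summit of both tumor libraries within 1 kb (75%, 57.9 to 86.7), against 87.7% of all 18018 retained summits. With YAP libraries grouped by the words in their peak names the 24 became 1. At equal list length 19 of the 38 were retained (50.0%, 34.8 to 65.2), against 67.0% of all. These intervals cover counting error only, and summits of 1 locus are not independent, so the first share is near its background and the other 2 are given as descriptions without a test.

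The elements were also split by distance from gene ends. Within 1 kb of the start or end of any protein-coding gene, 15 of 15 were retained (96.3% of all such normal summits), and 11 of the 15 carried YAP (94.7% of all such retained summits). The 4 without YAP lay at the starts of Cblif and Pgc, 2 at each. Farther out, 17 of 23 were retained (62.6% of all) and 13 of the 17 carried YAP (76.4% of all). The nearest protein-coding gene was the chief cell gene itself for 16 of the 38 summits. Of these 16, 14 were retained and 9 of the 14 carried YAP, while of the 22 summits nearer to a neighbouring gene 18 were retained and 15 carried YAP. At equal list length 6 of the 16 nearest to a chief cell gene were retained (37.5%) and 13 of the 22 nearer to a neighbour (59.1%). The 6 include 3 at Cblif that were matched to a single tumor summit. No share over all normal summits was computed for this split by nearest gene, so neither order is read as a result. Split by gene ends, 12 of 15 were retained at equal list length within 1 kb (92.0% of all such normal summits). Farther out it was 7 of 23 (41.0% of all).

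**Figure D2:**
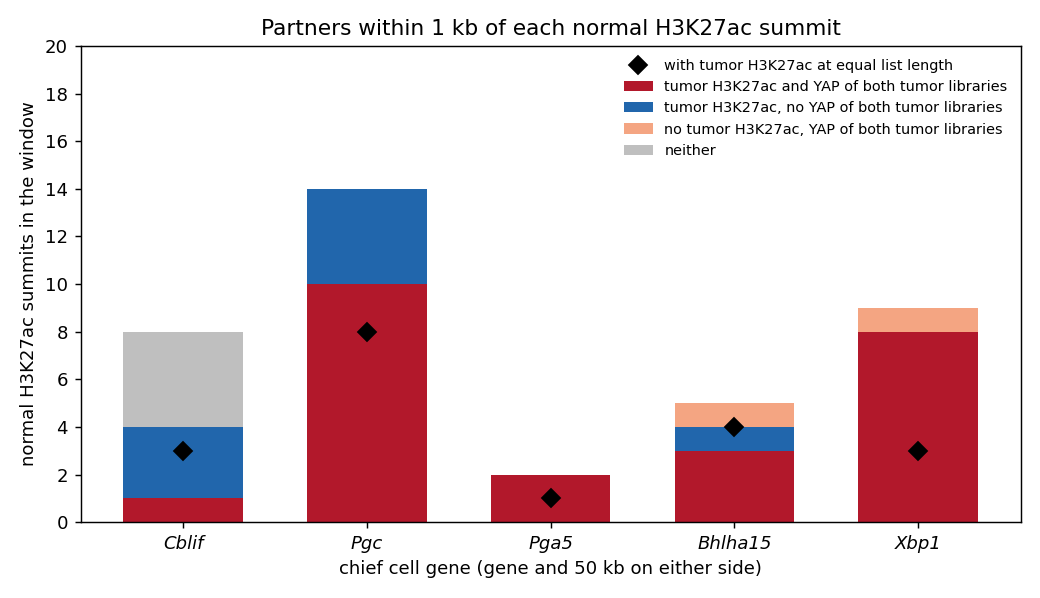
Normal H3K27ac summits per gene window (y axis, count), coloured by whether a tumor H3K27ac summit and YAP of both tumor libraries lay within 1 kb. Diamonds give the number with a tumor H3K27ac summit at equal list length, 3 of 9 at Xbp1 and 3 of 8 at Cblif.

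Cblif (chromosome 19, 11747543 to 11763447) had 2 H3K27ac summits in tumor and 8 in normal. Of the normal summits 5 formed a cluster inside the gene, 223, 755, 1242, 2129 and 2717 bp from its start, ranked between 9302 and 21107 of 22574. Facing this cluster the tumor library had 1 summit, 1057 bp inside the gene at position 11748600, ranked 18351 of 66896. The first 3 normal summits lay 834, 302 and 185 bp from it and were retained on its account. The other 2 lay 1072 and 1660 bp away, so 1 tumor summit stood opposite 5 normal ones and the count of retained summits overstates how many separate tumor elements there were.

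A further 2 normal summits lay 23927 and 22387 bp upstream of Cblif, in the direction of Oosp3, an oocyte-secreted protein gene. The nearest tumor H3K27ac summit was 23444 bp or more from either. The last, at the start of Mrpl16, a mitochondrial ribosomal protein gene, had a tumor summit 75 bp away. It was the 1 normal summit in the window with YAP of both tumor libraries, at 281 bp in tumor 1 and 221 bp in tumor 2. Inside Cblif, YAP had 1 summit in tumor 1, 8169 bp from the start and ranked 28211 of 38268, and none in tumor 2, normal 1 or normal 2. Of all protein-coding genes, 46.0% had a YAP site of both tumor libraries inside the gene, defined as a pair of summits within 200 bp and placed at its midpoint. None of the 5 chief cell genes had one by that definition. At Bhlha15 the midpoint lay 54 bp outside the gene. At Xbp1 summits of both tumor libraries lay inside the gene but more than 200 bp apart. The 5 genes are 4156 to 15905 bp long, and the 46.0% is not adjusted for gene length.

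Pgc (chromosome 17, 47726842 to 47734478) had 20 H3K27ac summits in tumor and 14 in normal, and all 14 were retained. All normal summits were retained at 2 of the 5 genes, Pgc and Pga5, as they were at 64.4% of all genes with a normal summit in the window. Only 3 of the 20 and 3 of the 14 lay nearer to Pgc than to another gene. At the Pgc start the tumor library had a summit 55 bp inside the gene, ranked 23158 of 66896. The normal library had 1 summit 555 bp upstream, ranked 14615 of 22574, and 1 summit 805 bp inside, ranked 19348. Both were retained through that single tumor summit, which lay just below the equal-length limit, so neither was retained at equal list length. No YAP summit of either tumor library came within 4993 bp of these 2 normal summits.

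The third normal summit next to Pgc, 5899 bp upstream and ranked 21902, had tumor YAP at 343 bp in tumor 1 and 351 bp in tumor 2. Its tumor H3K27ac partner lay 761 bp away. This was the 1 YAP site of both tumor libraries that was nearer to Pgc than to another gene, ranked 17059 of 38268 in tumor 1 and 41101 of 53904 in tumor 2. The remaining 11 normal summits fell on neighbours. A run of 3 between 17954 and 15136 bp upstream, between Frs3 and Pgc, was retained with YAP. So were the 3 at the Tomm6 and Frs3 ends. Tfeb, which encodes a regulator of lysosome genes and lies beyond the far end of Pgc, held 5 normal summits. The best of these ranked 1621 of 66896 in tumor and 740 of 22574 in normal, and carried YAP of both tumor libraries.

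Pga5 (chromosome 19, 10668957 to 10678071) had no H3K27ac summit inside the gene or within 10 kb in tumor or in normal. In the 50 kb window there were 12 H3K27ac summits in tumor and 2 in normal. Both normal summits belonged to Vps37c, an endosomal sorting gene, at 19986 and 30550 bp from the lower end of Pga5. Both were retained and carried YAP of both tumor libraries. The first, at the start of Vps37c, ranked 2499 of 66896 in tumor and 4944 of 22574 in normal. YAP had a site of both tumor libraries beyond the higher end of Pga5, at 597 bp in tumor 1 and 580 bp in tumor 2, with no H3K27ac summit of either library within 10284 bp. That site ranked 24935 of 38268 in tumor 1 and 8724 of 53904 in tumor 2. The strand of Pga5 is not given in the tables used here, so whether this end is its start is not stated.

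Bhlha15 (chromosome 5, 144190286 to 144194441) had 14 H3K27ac summits in tumor and 5 in normal. At its start the tumor library had a summit 4 bp upstream, ranked 30255 of 66896, and another 864 bp inside, ranked 14536. The normal library had 1 summit between them, 382 bp inside and ranked 9675 of 22574, which was retained at both list lengths. YAP lay 10 bp inside the gene in tumor 1, ranked 16044 of 38268, and 117 bp upstream in tumor 2, ranked 22946 of 53904. The tumor 2 summit falls within the Bhlha15 bases printed above. No YAP summit of normal 1 or normal 2 came within 106440 bp of the gene.

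Of the other 4 normal summits in the Bhlha15 window, 2 lay at the far end of Tecpr1, which encodes a tethering protein of autophagy, and both were retained with YAP. Another 2 lay inside Lmtk2, a kinase gene. The nearer of these, 5440 bp upstream of Bhlha15, had a tumor H3K27ac summit 45 bp away. It carried YAP in tumor 1 at 569 bp and in tumor 2 only at 5323 bp. The farther, at 31875 bp, was found only in normal: the nearest tumor H3K27ac summit was 15397 bp away, although tumor YAP lay at 385 bp in tumor 1 and 353 bp in tumor 2.

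Xbp1 (chromosome 11, 5520641 to 5525993) had 11 H3K27ac summits in tumor and 9 in normal. Its start held the strongest element of the set: the summit 538 bp inside the gene in tumor ranked 661 of 66896, and the one 562 bp inside in normal ranked 149 of 22574. YAP lay beside it 433 bp inside the gene in tumor 1, ranked 9602 of 38268, and 176 bp inside in tumor 2, ranked 9663 of 53904. These 2 summits are over 200 bp apart and so are no pair. YAP normal 2 also had a summit there, 465 bp inside the gene and ranked 1323 of 2141, the only summit of a normal YAP library in the 5 windows. Thus 1 of the 38 normal H3K27ac elements had normal YAP within 1 kb, against 6.86% of all normal summits.

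Upstream of Xbp1, a stretch without another protein-coding gene in the window held 6 normal H3K27ac summits, from 34856 to 8292 bp before the start and ranked between 7081 and 14462 of 22574. All 6 were retained in the full tumor list, and all 6 had YAP of both tumor libraries within 1 kb, between 208 and 437 bp away. The element at 34856 bp ranked 14032 of 66896 in tumor and 8841 of 22574 in normal, with YAP ranked 2144 of 38268 in tumor 1 and 6118 of 53904 in tumor 2. It was the 1 of the 6 that was retained at equal list length. At the others the nearest YAP summits ranked between 22554 and 32952 in tumor 1 and between 19189 and 32190 in tumor 2. The elements at 22405 and 21709 bp shared the same YAP summit in each tumor library. At a YAP score of at least 10, 3 of the 8 retained summits in the whole Xbp1 window carried YAP of both tumor libraries. No share over all retained summits was computed at that score, so this count has no background. The summits at 28787, 22405, 21709 and 8292 bp had their nearest tumor partners at 81, 94, 70 and 74 bp, ranked 65045, 59647, 62283 and 59832 of 66896. That at 8292 bp also had a better ranked tumor summit within 1 kb, 841 bp away and ranked 23367. The sixth, at 20872 bp, was retained through the partner ranked 62283, 907 bp away. Ranks in lists of unequal length do not measure a change in the mark, and each library stands alone.

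Another 2 normal summits lay downstream of Xbp1. That at the higher coordinate end of Ccdc117, 21373 bp from the Xbp1 start, ranked 2633 of 66896 in tumor and 3165 of 22574 in normal. It had YAP at 207 bp in tumor 1 and 213 bp in tumor 2. That at 34597 bp had YAP at 639 bp and 521 bp in tumor 1 and tumor 2, and its nearest tumor H3K27ac summit was 1982 bp away, outside the 1 kb limit. With the start included, 9 of 9 normal summits in the Xbp1 window had YAP of both tumor libraries, against 81.1% of all normal summits.

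**Figure D3:**
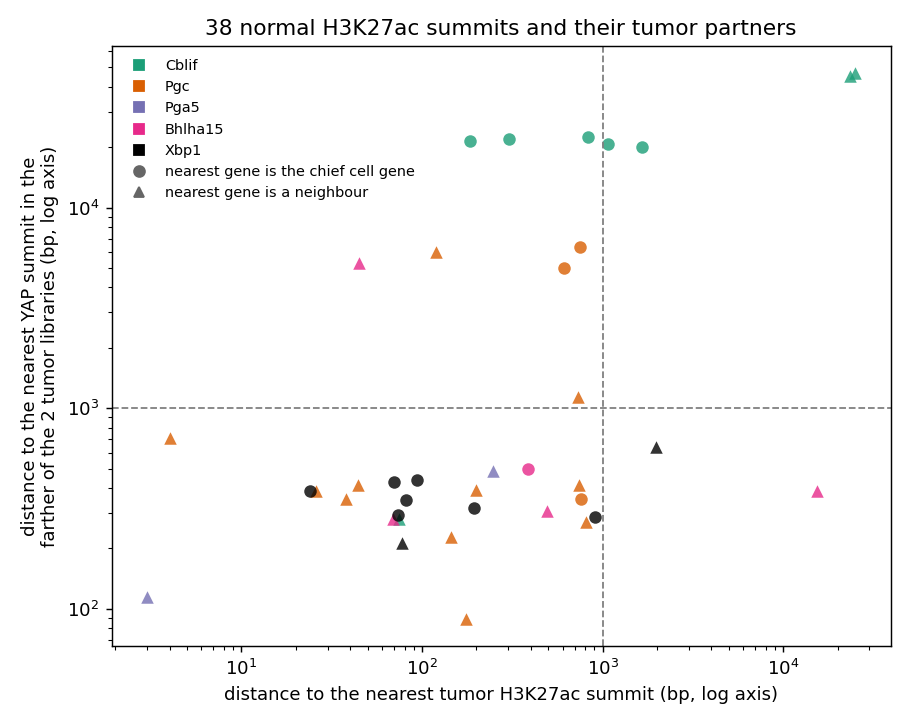
Each of the 38 normal H3K27ac summits by its distance to the nearest tumor H3K27ac summit (x axis, bp, log scale) and to the nearest YAP summit in the farther of the 2 tumor libraries (y axis, bp, log scale), with dashed lines at 1 kb. The 9 summits of Xbp1 lie below the YAP line, and all 5 inside Cblif lie above it.

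Across the 5 windows the 6 normal summits that were not retained were 4 at Cblif, 1 at Bhlha15 and 1 at Xbp1. YAP of both tumor libraries lay within 1 kb of the last 2 and of none at Cblif. Over all 4556 normal summits that were not retained, 55.0% had YAP of both tumor libraries. In the other direction, 32 of the 59 tumor summits in the windows had no normal summit within 1 kb (54.2%), against 75.3% of all tumor summits. By window these were 0 of 2 at Cblif, 9 of 20 at Pgc, 10 of 12 at Pga5, 10 of 14 at Bhlha15 and 3 of 11 at Xbp1. YAP of both tumor libraries was near 4 of the 32 (12.5%), against 8.06% of all such tumor summits. These 4 lay in Vwce and Vps37c by Pga5 and, 2 of them, in Tecpr1 by Bhlha15, and none was nearer to a chief cell gene. Of the 27 tumor summits with a normal partner 22 had YAP of both tumor libraries (81.5%), against 85.7% of all such tumor summits.

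At equal list length each of the 5 genes had fewer H3K27ac summits in tumor than in normal, a result already known when the genes were chosen. Cblif had 1 in tumor and 8 in normal, Pgc 5 and 14, Pga5 1 and 2, Bhlha15 3 and 5, and Xbp1 5 and 9. Of all genes with a summit in either list, 43.1% had fewer in tumor and 29.9% more. In the full lists Cblif was the 1 gene with fewer, which held for 6.0% of all genes, and the other 4 had more, which held for 86.2%.

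A further 18 genes of zymogen secretion and the endoplasmic reticulum were read the same way. In the full lists 1 of the 18 had fewer H3K27ac summits in tumor and 14 had more. The 1 was Pdia4, a disulfide isomerase gene, with 11 in tumor and 12 in normal. The largest excess was at Rab3d, a granule GTPase gene with 15 in tumor and 3 in normal. Next came Rab26, another granule GTPase gene, with 14 and 4, Clps, the colipase gene, with 13 and 6, and Ern1, which encodes IRE1, with 9 and 3. The median difference, tumor minus normal, was 3 summits for the 18 genes, 6 for the 5 chief cell genes and 3 for all genes. At equal list length 8 of the 18 had fewer and 3 more, and the median difference was 0 for the 18, -4 for the 5 and 0 for all genes. Hyou1, an endoplasmic reticulum chaperone gene, then had the largest deficit, with 8 in tumor and 12 in normal. None of the 4 largest excesses remained: Rab3d and Ern1 then had 3 in each library, Rab26 2 in tumor and 4 in normal, and Clps 4 and 6. Within 10 kb, in the full lists, Rab3d and Rab26 had 2 in each library, Clps 4 in tumor and 2 in normal, and Ern1 2 and 1. In the 50 kb windows of the 18 genes, 66 of 71 normal summits were retained (93.0%). Of these 66, 63 carried YAP of both tumor libraries (95.5%). Summed over the windows of all genes, which overlap, the shares were 86.2% and 89.96%, and no test was made of either difference. A YAP site of both tumor libraries lay in the window of 16 of the 18 genes, as it did for 5 of the 5 and for 79.2% of all genes.

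YAP summits were also compared between the labels over the 5 windows as 1 value. Tumor 1 and tumor 2 had 35 and 43 summits there, against 0 and 1 in normal 1 and normal 2. The groups did not overlap, with a mean of 39.0 ± 5.66 in tumor and 0.5 ± 0.707 in normal (SD, n = 2 each), a difference of 38.5. By an exact permutation test, two-sided, p was 0.333, the lowest value possible for 2 libraries against 2. The windows held 0.0915% and 0.0798% of the tumor 1 and tumor 2 lists, against 0% and 0.0467% of the normal 1 and normal 2 lists. A count of 0 in 1654 allows a share of up to 0.181%, above both tumor shares, so the list lengths cannot show a difference in share. With every list at 1654 summits the windows held 0 and 0 in tumor and 0 and 1 in normal (exact permutation p = 1.0, n = 2 each), which turned the direction. With peak-name words in place of labels the difference was 4.5 summits (exact permutation p = 0.667, n = 2 each).

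The 2 tumor YAP libraries largely found the same sites at these genes. Of the 35 tumor 1 summits 29 had a tumor 2 partner within 200 bp (82.9%, against 77.1% of the whole tumor 1 list), and these were 67.4% of the 43 tumor 2 summits, against 54.7% of that list. The partners were 4 to 174 bp apart, with a median of 29 bp, against 52 bp for all 29492 pairs. By window there were 2 such sites at Cblif, 7 at Pgc, 6 at Pga5, 5 at Bhlha15 and 9 at Xbp1. The median rank of the 29 was at 48.2% of the tumor 1 list and 35.6% of the tumor 2 list, against 42% and 30.3% for all pairs, where a low value is a better rank.

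Of these 29 sites, 17 had both tumor and normal H3K27ac within 1 kb (58.6%, 40.7 to 74.5), against 40.6% of all pairs. Another 3 had tumor H3K27ac alone (11.4% of all pairs) and 2 had normal H3K27ac alone (6.80% of all). The last 7 had neither (24.1%, against 41.2% of all). Among the 7 were the site beyond the higher end of Pga5 and 3 in the Xbp1 window. The site ranked best in tumor 1 lay at Frs3, 31819 bp upstream of Pgc, at 2073 of 38268 in tumor 1 and 3842 of 53904 in tumor 2. The site ranked best in tumor 2 lay at Vps37c in the Pga5 window, at 4290 in tumor 1 and 1989 in tumor 2. None ranked 1000 or better in both. The sites nearest to a chief cell gene numbered 9 of the 29, of which 6 were at Xbp1, 1 each at Pgc, Pga5 and Bhlha15, and 0 at Cblif.

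**Figure D4:**
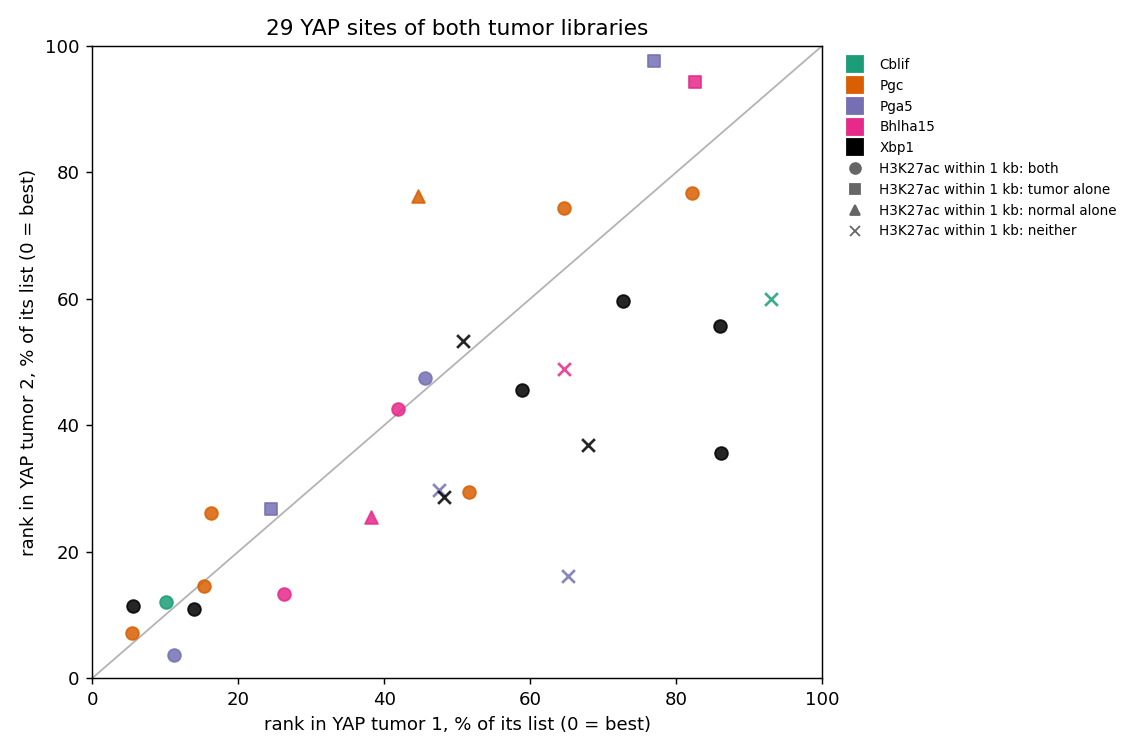
The 29 YAP sites of both tumor libraries by rank in tumor 1 (x axis) and tumor 2 (y axis), as % of each list with 0 the best, coloured by gene and shaped by H3K27ac within 1 kb. The site at Frs3, with H3K27ac of both tissues, is the 1 within the best 10% of both lists, and the 7 sites with no H3K27ac lie between 47.5 and 93.0% in tumor 1.

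The genes whose summit counts were most like the mean of the 5, by Euclidean distance of log2(count + 1) over the 6 libraries, were Txnip (0.24), Mon1a, Nr1i3 and Nrn1l (0.25 each) and Mief1 (0.25). Txnip had 6 and 8 YAP summits in tumor 1 and tumor 2 and 0 in both normal libraries, with 10 H3K27ac summits in tumor and 7 in normal. The 5 chief cell genes lay farther from their own mean, from 0.64 at Bhlha15 to 2.38 at Cblif, so it stands for none of them closely.

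Markers of other cells were also read, since the epithelial preparation can hold them. An H3K27ac summit lay inside or within 1 kb of 4 of 4 stromal and muscle markers in tumor and 1 of 4 in normal, with 17 summits in tumor and 1 in normal. For endothelial markers this was 3 of 3 in tumor and 1 of 3 in normal, with 9 and 3 summits, and for immune markers 1 of 4 in each, with 1 summit each. Cd3e, Cd79a and Cd68 had none in tumor or normal. Pancreatic acinar markers, from a tissue that also uses Bhlha15 and Xbp1, had a summit at 4 of 5 in tumor and 1 of 5 in normal, with 9 and 2 summits, and Prss1 had none in either. For no marker, the epithelial ones included, is a count at equal list length or the share of all genes with such a summit given. The marker counts therefore cannot be read as a difference in cell content. The part of such cells, and of the longer tumor list, in the H3K27ac counts at the chief cell genes was not tested.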

How the data were processed

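The 6 ChIP-seq libraries were each analysed as 1 list of summits, 1 bp wide. Per the submitters' processing notes, the authors used Bowtie2, MACS2 and build GRCm38 (mm10). Their versions and thresholds, and whether a control was used, are not stated in those notes or in the labels. Reads were 50 bp pairs, per the labels' protocols. The deposited score is a −log10 value written by the authors' caller, from either a p-value or a q-value (which is not stated). It is the authors' own value and was used only to rank (1 = best) or filter summits within 1 list. Lists were called per library, since each has its own peak names. Summits outside chromosomes 1 to 19, X and Y were left out (31 to 180 per list).

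Gene positions came from a RefSeq table (GRCm38.p6) that gives no exons, so exon or intron is not stated. H3K27ac and YAP summits were called shared within 1 kb, and YAP replicates were paired one to one within 200 bp. The overlap code was tested on simulated lists. Python 3.11.15, numpy 2.4.6, pandas 2.3.3, scipy 1.17.1 and matplotlib 3.10.9 were used. The members and lists were chosen with earlier results of these data known. Named genes were the 5, the nearest gene of any summit in their windows, the 4 of the 18 with the largest rise and up to 4 with the largest fall in summit count, and the 5 most alike. Of the falls, Pdia4 was the 1 in the full lists, and at equal list length only Hyou1 is named as a fall, as the next 5 were tied. Rab26 and Clps appear at equal list length because of their rise in the full lists. Markers with no summit are named outside this rule, after their values were seen. H3K27ac, with 1 library per group, was not tested. YAP counts were compared with an exact permutation test. Alternatives were the distance, window, score minimum (10), list length, grouping, merging and leaving out each YAP library.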

Additional observations from a re-analysis of the deposited data

How the results depend on the processing

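The 32 of 38 retained normal summits were 24 within 500 bp, 35 within 2 kb and 22 of 25 when summits closer than 2 kb were merged. They were 19 at equal list length, 15 of 21 at a score of at least 10, 13 of 15 in 10 kb windows and 14 of 16 nearest to a member. The 24 of 32 with YAP of both tumor libraries were 11 at a YAP score of at least 10, 6 of 13 in 10 kb windows, 9 of 14 nearest to a member and 1 with YAP groups from the peak-name words. They were 23 with YAP within 500 bp, 25 within 2 kb, 25 with only tumor 1 used and 25 with only tumor 2 used. No share over all retained summits was computed for these alternative YAP settings. The YAP difference of 38.5 summits was -0.5 at the length of the shortest list, 1654 summits. The best YAP summits in the windows ranked 2073 in tumor 1 and 1989 in tumor 2, outside that length. Leaving out 1 library gave 34.5 to 42.5, with no test as 1 library was left in a group. The YAP difference was 11 in 10 kb windows and 15 at a score of at least 10. With the replicate block, a paired exact permutation test, it was 38.5 (p = 0.5). The labels do not say that equal numbers share an animal or day, and deviations of same-numbered libraries correlated at 0.027 over 21883 genes. Of the 18 other genes, 1 had fewer tumor summits in the full lists, 8 at equal length and 3 in 10 kb windows. The 176 summits in all fell to 53 in 10 kb windows. Unknown depth limits every count: a missing summit shows only that none was called.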
